A study of Homo sapiens with 4 samples.

Results

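Chromosomes 5, 7 and 10 held more open-chromatin peaks per megabase than the genome average in every library of an ATAC-seq study of OVSAHO cells, and they were selected on that peak number. All peaks on these chromosomes were taken from the 4 narrow and the 4 broad peak lists, leaving out 3 windows of 1 Mb beside centromeres, on chromosome 7 from 61 to 62 Mb and on chromosome 10 from 39 to 40 Mb and from 42 to 43 Mb. This gave 19150 of 78744 peaks, 5372 of 23813 narrow and 13778 of 54931 broad. Coordinates are on the hg19 build. The peaks are described here by chromosome arm and by bins of 5 Mb, to show which arms carried the crowding.

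OVSAHO is an established human cell line from a high-grade serous ovarian cancer. In ATAC-seq a transposase cuts and tags accessible DNA, so sites of open chromatin gather fragments. In the test cells SMARCA2 was stably raised and SMARCA4 was knocked down. Control cells were wild type by the sample labels, and the series description adds a negative-control siRNA. All 4 libraries come from cells kept for 2 days in 25 µM carboplatin, a DNA-crosslinking platinum compound, and untreated cells are not part of the comparison. Each group had 2 libraries, called test 1, test 2, control 1 and control 2. The labels do not say that these were separate cultures, so p-values reflect spread that may be technical. The levels of SMARCA2 and SMARCA4 themselves were not measured here, and the group labels rest on the submitters' word.

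SMARCA2 and SMARCA4 are the alternative ATPases of SWI/SNF complexes, which slide and evict nucleosomes and so open DNA to other proteins. Each chromosome has a short arm, p, and a long arm, q, on either side of the centromere. Among the genes known on these arms are TERT, the catalytic subunit of telomerase, on 5p, APC, an inhibitor of Wnt signalling, on 5q, EGFR, a growth factor receptor, on 7p, MET, another receptor kinase, on 7q, and GATA3, a transcription factor, on 10p. No peak was tied to a gene here. A peak caller judges each site against the local background, the fragments around it. That background follows copy number, mappability and general openness, and these cannot be told apart in peak lists.

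The libraries were of unequal depth. The narrow lists rested on 6146272 and 6885374 short, nucleosome-free fragments in test 1 and test 2, against 15828837 and 7531794 in control 1 and control 2. Control 1 stood apart, with the longest lists and the shortest mean length of all fragments, 131 bp against 178 to 182 bp in the other 3 libraries. Its values are therefore given singly throughout, and results that rest on it are given with and without it. Peak number differed with depth, so peaks are given as a share of their own list or as a relative density, the share of a list on an arm divided by the arm's share of the genome's length, where 1 is the genome average. Windows of 1 Mb with 5 or more narrow regions called in all 4 libraries, 34 in the genome and called dense windows, were left out of all shares, densities and tests. Besides the 3 named windows, 2 lay on these chromosomes. The window of chromosome 5 from 49000001 to 50000000 held 12 and 15 narrow peaks in test 1 and test 2, against 23 and 17 in control 1 and control 2. The window of chromosome 10 from 135000001 to 136000000 held 8 and 7 in the test libraries, against 20 and 7 in the control libraries. In broad peaks the first window held 68 and the second 55 over the 4 libraries.

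The 3 chromosomes make up 16.1% of the length of all chromosome arms. They held 20.5% of the narrow peaks in test 1 (95% exact interval 19 to 22) and 23.5% in test 2 (22.2 to 25.0), against 30.5% in control 1 (29.5 to 31.4) and 21.3% in control 2 (20.2 to 22.5). They held 21% and 26.8% of the broad peaks in test 1 and test 2, against 31.3% and 21.5% in control 1 and control 2. These intervals cover counting error only. Every share lay above 16.1%, which is a description, since the chromosomes were chosen for it. Control 1 was the highest in both peak types and test 2 came next, while test 1 and control 2 lay close to each other.

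The differences between test and control libraries in these shares were smaller than the SD of the control libraries. The narrow share averaged 22% ± 2.15 in test and 25.9% ± 6.45 in control libraries (SD, n = 2 each), a difference of -3.87 percentage points with an exact two-sided permutation p of 0.667. The broad share averaged 23.9% ± 4.13 in test and 26.4% ± 6.89 in control libraries, a difference of -2.51 points with an exact permutation p of 0.667. With 2 libraries against 2 the smallest possible p is 0.33. Without control 1 the narrow difference was 0.698 and the broad one 2.37, both with the opposite sign.

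The crowding was carried mainly by 7q, 10q and 5p, less by 10p and 5q, and not by 7p. The long arm of chromosome 7 was the densest of the 6. Its narrow relative density was 1.82 in test 1 and 2.21 in test 2, against 2.77 in control 1 and 1.94 in control 2. By the mean over libraries it was rank 4 of 42 arms in both peak types, behind 19p, 20q and 19q. All 18 of its full bins had a mean narrow relative density above 1, and 12 of them were above 1 in every library.

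The short arm of the same chromosome went the other way. Narrow relative density on 7p was 0.595 and 0.634 in test 1 and test 2, against 0.590 and 0.667 in control 1 and control 2. These 4 values lay close together, below the genome average, at rank 27 of 42 arms for narrow and 29 for broad peaks. Of its 11 full bins, 1 had a mean above 1, the bin from 0 to 5 Mb at the tip of the arm, with a narrow relative density of 2.03 and 2.13 in the test libraries, against 2.33 and 1.81 in the control libraries. Between 5 and 55 Mb, a stretch singled out after its values were seen, 7p held 15 and 19 narrow peaks in test 1 and test 2, against 40 and 34 in control 1 and control 2. That is a relative density of 0.305 and 0.311 in test libraries, against 0.251 and 0.411 in control libraries. The bin from 55 to 60 Mb, beside the centromere, is not a full bin. It held 9 and 13 narrow peaks in test 1 and test 2, against 32 and 15 in control 1 and control 2. Its narrow background, a median over these few peaks, was 33.5 and 33.0 times the genome background in the test libraries, against 4.26 and 4.78 times in the control libraries. Broad peaks did not repeat this contrast. Their background there was 1.52 and 1.64 times the genome background in the test libraries, against 1.84 and 1.30 times in the control libraries, so the groups overlapped.

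On 10q the narrow relative density was 1.39 and 1.62 in test 1 and test 2, against 2.29 and 1.51 in control 1 and control 2, rank 6 of 42 arms. On 5q it was 1.20 and 1.14 in the test libraries, against 1.33 and 1.06 in the control libraries, rank 13. Control 1 was the highest library on both arms and the groups overlapped.

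On 5p the order of the libraries cut across the groups. Narrow relative density was 1.29 in test 1 and 1.92 in test 2, against 2.27 in control 1 and 1.19 in control 2, rank 7 of 42. Broad relative density was 1.49 in test 1 and 2.70 in test 2, against 2.42 in control 1 and 1.24 in control 2, rank 5. Test 2 and control 1 were thus the high libraries and test 1 and control 2 the low ones, in both peak types. Among broad peaks with a −log10 q of 5 or more, 5p was near or below the genome average in 3 libraries, at 0.840 in test 1 and 1.11 in test 2, against 2.75 in control 1 and 0.840 in control 2. Narrow peaks of that strength kept 5p above average, at 1.40 and 1.86 in the test libraries, against 2.30 and 1.27 in the control libraries.

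**Figure D1:**
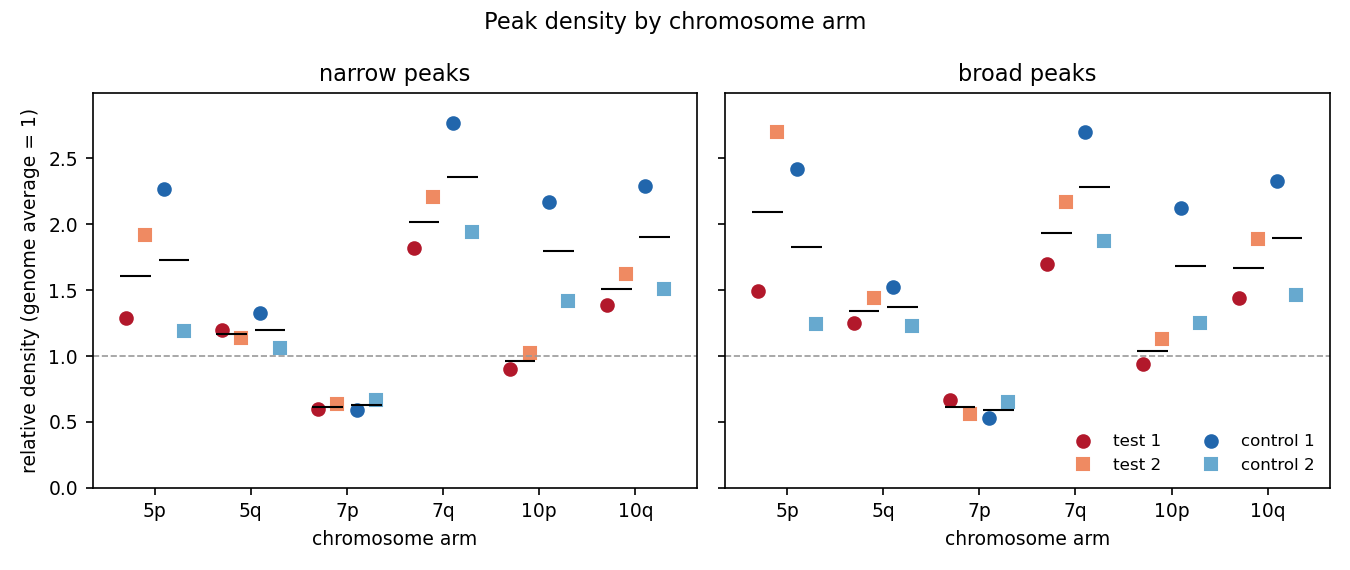
Relative density of narrow (left) and broad (right) peaks on the 6 arms. The y axis is the share of a library's list on the arm over the arm's share of genome length, points are single libraries (test left, control right), black lines are means of 2 libraries and the dashed line is the genome average of 1. On 7q all 4 libraries lie at 1.70 or above in both types, on 7p all lie at 0.667 or below, and on 10p both test libraries lie below both control libraries.

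The plot of relative density by arm shows 10p as the one arm where the groups did not overlap. Narrow relative density on 10p was 0.905 in test 1 and 1.02 in test 2, against 2.17 in control 1 and 1.42 in control 2. The test libraries were at the genome average and the control libraries above it. As a share of the list, 10p held 1.30% ± 0.111 of narrow peaks in test and 2.42% ± 0.720 in control libraries (SD, n = 2 each), a difference of -1.12 percentage points. Broad peaks gave 1.40% ± 0.181 in test and 2.27% ± 0.828 in control libraries, a difference of -0.876 points. The exact two-sided permutation p was 0.33 for each, the smallest that 2 against 2 libraries can give, and 1 after Benjamini-Hochberg adjustment over 12 results (6 arms in 2 peak types).

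Groups that do not overlap were common in the genome. They were found in 26.2% of all 84 arm and peak type pairs, and in 2 of the 12 pairs on these chromosomes, both on 10p. By the difference in share of the list, the measure tested, 10p was at rank 39 of 42 arms in both peak types. By the difference in relative density, it was last for narrow peaks, at rank 42, and at rank 41 for broad peaks. Control 1 set much of the size of the 10p difference. Without control 1 the 10p difference was -0.613 percentage points for narrow and -0.291 points for broad peaks. Leaving out a library could not change its sign, since the groups did not overlap. Over all alternatives and left-out libraries it ranged from -1.63 to -0.613 points for narrow and from -1.46 to -0.291 points for broad peaks. The 10p share was singled out after the values were seen.

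Along 10p the lower density in test libraries was spread over the arm. Both test libraries lay below both control libraries in 6 of 7 full bins for narrow peaks and in 4 of 7 for broad peaks. Over all 563 full bins of the genome this held in 93 bins for narrow and in 77 bins for broad peaks. The fullest bin, from 0 to 5 Mb, held 5 and 13 narrow peaks in test 1 and test 2, against 79 and 18 in control 1 and control 2. Its relative density was 1.02 and 2.13 in the test libraries, against 4.97 and 2.18 in the control libraries, so test 2 and control 2 were alike there and control 1 stood out. From 5 to 35 Mb, a stretch chosen after its values were seen, narrow relative density was 0.711 and 0.682 in the test libraries, against 1.69 and 1.19 in the control libraries. Broad relative density in the same stretch was 0.895 and 0.984 in test 1 and test 2, against 1.75 and 1.21 in control 1 and control 2.

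Within the arms the density was uneven. On 5p the densest bin was the tip, from 0 to 5 Mb, with a narrow relative density of 3.05 and 4.42 in test 1 and test 2, against 5.72 and 1.81 in control 1 and control 2. Its broad relative density was 1.58 and 4.47 in the test libraries, against 4.60 and 1.22 in the control libraries, so the split of the arm was widest at its tip. The sparsest bin of 5p, from 20 to 25 Mb, held 1 narrow peak in each test library, against 15 in control 1 and 5 in control 2.

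On 5q the last full bin, from 175 to 180 Mb, was the densest, and the libraries lay close together. Narrow relative density was 5.08 and 4.26 in test 1 and test 2, against 4.59 and 3.87 in control 1 and control 2, rank 7 of 563 full bins of the genome. The bin from 55 to 60 Mb had no narrow peak in any of the 4 libraries. With 26 full bins, 14 of them above the genome average, 5q had both one of the densest and one of the emptiest bins of the genome.

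On 7q different libraries peaked in different places. The densest narrow bin, from 70 to 75 Mb, had a relative density of 4.26 and 3.60 in test 1 and test 2, against 1.82 and 3.39 in control 1 and control 2, so control 1 was the lowest there. From 110 to 135 Mb control 1 was far above the other 3, with a narrow relative density of 1.14 and 1.64 in the test libraries, against 3.58 and 1.62 in the control libraries. Both stretches were described after their values were seen. The same contrast within 1 arm was present on 10q. From 95 to 105 Mb the narrow relative density was 3.45 and 2.70 in test 1 and test 2, against 1.48 and 2.78 in control 1 and control 2. From 75 to 85 Mb it was 2.13 and 2.46 in the test libraries, against 5.56 and 2.36 in the control libraries. Control 1 was thus the lowest library in some dense stretches and the highest in others.

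**Figure D2:**
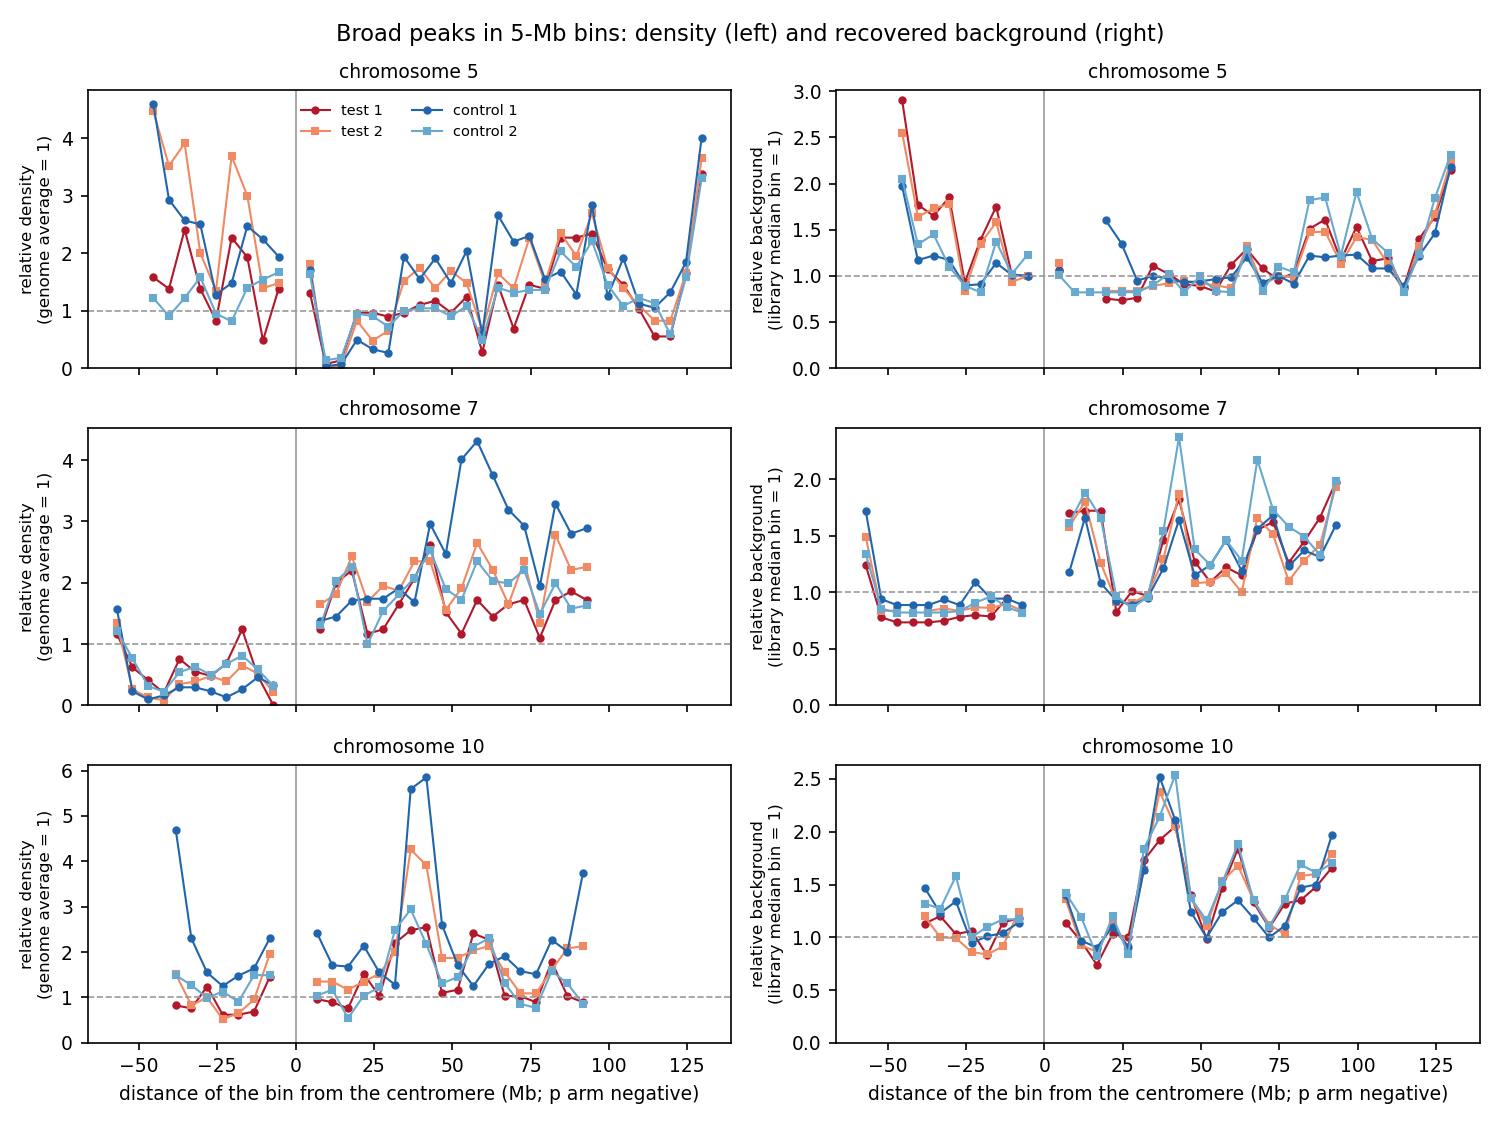
Relative density (left) and relative background (right) of broad peaks in full bins of 5 Mb along chromosomes 5, 7 and 10. The x axis is the distance of the bin's middle from the centromere, with the p arm negative, each line is 1 library and bins with under 3 peaks have no background. Density on chromosome 7 steps up at the centromere, and on 5p the background of both test libraries lies above that of both control libraries in 6 of 9 bins.

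Over the 89 full bins of these chromosomes the profiles of the test libraries were the most alike. The Spearman rank correlation of narrow relative density was 0.852 between test 1 and test 2, against 0.677 between control 1 and control 2. The lowest was 0.550, between test 1 and control 1. Broad peaks gave 0.847 between the test libraries, against 0.632 between the control libraries. Control 2 was more like the test libraries than like control 1. Its correlation with test 1 and test 2 was 0.716 and 0.721 for narrow and 0.790 and 0.744 for broad peaks. Bins are not replicates and share library, depth and sequence content, so these are descriptions.

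The recovered background was the second measure. The authors' fold enrichment is the pileup plus 1 over the local background plus 1, so the background of each peak was recovered as the pileup plus 1, divided by fold enrichment, minus 1. It cannot fall below the genome-wide background that the caller computes for a library, and peaks within 2% of that floor were counted. Medians were taken over the bins with 3 or more peaks and divided by the median over all such bins of the library, so that 1 is the library's typical bin. This is called relative background.

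Background differed between the arms, as density did. Over all these bins the narrow relative background averaged 1.09 ± 0.0457 in test and 1.06 ± 0.0589 in control libraries (SD, n = 2 each), a difference of 0.0316 with an exact two-sided permutation p of 0.667. It was -0.00998 without control 1 and -6.65e-04 without test 1. On 7q the broad relative background was 1.45 and 1.27 in test 1 and test 2, against 1.27 and 1.51 in control 1 and control 2. On 7p it was 0.783 and 0.856 in the test libraries, against 0.937 and 0.844 in the control libraries. The arms of chromosome 7 thus differed in every library, in background as in density.

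Peaks at the floor showed the same contrast. On 7p 36.6% and 34.9% of broad peaks in test 1 and test 2 had a background at the floor, against 30.9% and 44.6% in control 1 and control 2. On 7q these shares were 5.98% and 9.59% in the test libraries, against 11.3% and 8.73% in the control libraries. The floor compresses differences between bins of low background.

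On 5p the background was higher in both test libraries. Narrow relative background was 1.41 in test 1 and 1.26 in test 2, against 0.976 in control 1 and 1.02 in control 2. These narrow medians rest on 7 bins in test 1 and 9 in each other library, and not on the same bins. Broad relative background was 1.52 in test 1 and 1.46 in test 2, against 1.07 in control 1 and 1.17 in control 2, over 10 bins in every library. The groups did not overlap in either type, and the gap between them was wider than the spread within either group. The difference was 0.334 for narrow peaks, rank 3 of 42 arms, and 0.373 for broad peaks, rank 1 of 42. The exact two-sided permutation p was 0.33 for each, the smallest possible. Over all alternatives and left-out libraries the difference lay between 0.259 and 0.491 for narrow and between 0.284 and 0.766 for broad peaks on this scale. Leaving out a library could not change its sign, since the groups did not overlap. Measured over the genome background of the file header instead, it was 0.787 for narrow and 0.602 for broad peaks. The 5p background was singled out after the values were seen.

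Arm backgrounds whose groups did not overlap made up 35.7% of all 84 arm and peak type pairs, so 5 of the 12 pairs on these chromosomes is close to the genome's share. The 5 were 5p in both types and 10q narrow, with test above control, and 10p in both types, with test below control. On 10q the narrow relative background was 1.33 in each test library, against 1.09 in control 1 and 1.20 in control 2, but the broad one overlapped. On 10p the narrow relative background was 1.01 and 0.988 in test 1 and test 2, against 1.02 and 1.03 in control 1 and control 2, a difference of -0.0255. The broad one averaged 1.07 ± 0.0975 in test and 1.16 ± 0.0238 in control libraries, a difference of -0.0941. Background and density are on different scales, so the sizes of their differences are not compared.

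The higher 5p background in test cells was present in most of the arm. Both test libraries lay above both control libraries in 5 of the 6 full bins with 4 narrow values and in 6 of 9 with 4 broad values. Over the whole genome this was so in 28 of 260 bins for narrow and in 37 of 448 bins for broad peaks. The broad difference was largest at the tip, from 0 to 5 Mb, at 2.90 and 2.55 in test 1 and test 2, against 1.97 and 2.05 in control 1 and control 2. Narrow peaks did not repeat this at the tip. Their relative background was 2.47 and 3.27 in test 1 and test 2, against 1.65 and 4.60 in control 1 and control 2, so the groups overlapped. In the bin from 25 to 30 Mb the broad relative background was 1.39 and 1.35 in test 1 and test 2, against 0.909 and 0.821 in control 1 and control 2. That bin was also denser in test cells, with a broad relative density of 2.27 and 3.69 in the test libraries, against 1.48 and 0.813 in the control libraries. From 0 to 20 Mb the broad relative background was 1.82 and 1.78 in the test libraries, against 1.35 and 1.37 in the control libraries. In the bin from 35 to 40 Mb, nearer the centromere, the groups were close, at 1.01 and 0.936 in the test libraries, against 1.01 and 1.02 in the control libraries.

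Background and density of 5p therefore sorted the libraries differently. By background, test 1 and test 2 were above control 1 and control 2, while by peak density test 2 and control 1 were above test 1 and control 2. Copy number of 5p in the test and control cells was not analysed here, and its part in either order was not tested.

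**Figure D3:**
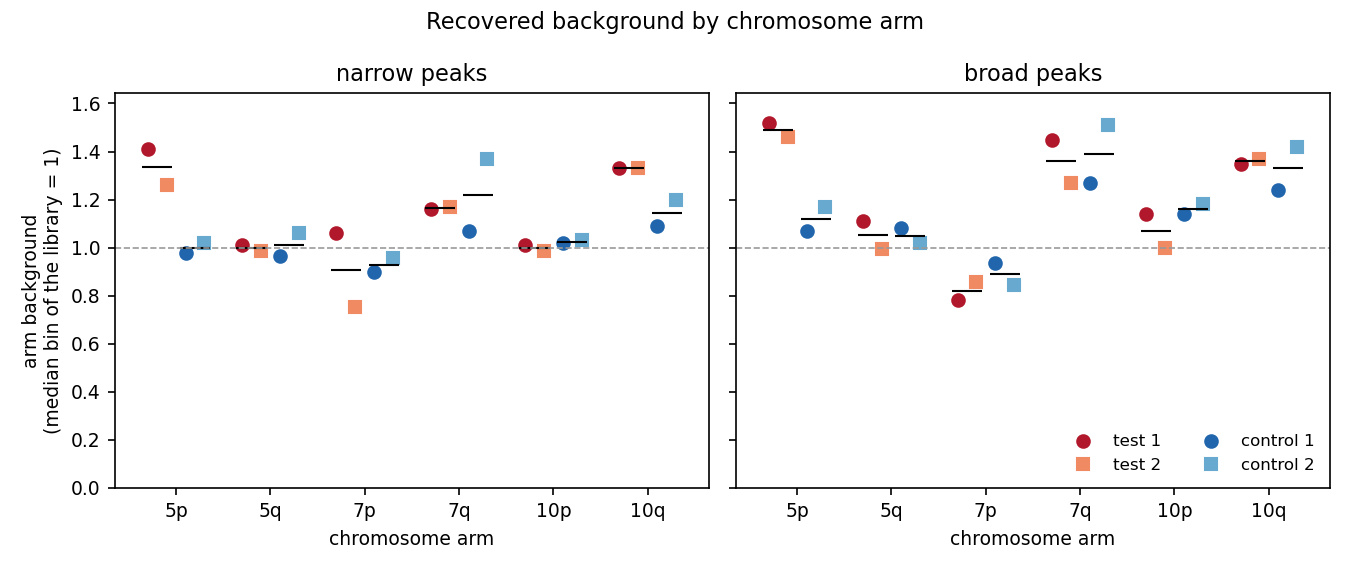
Relative background of narrow (left) and broad (right) peaks on the 6 arms, where 1 is the median bin of the same library. Points are single libraries (test left, control right) and black lines are means of 2 libraries. On 5p both test libraries lie above both control libraries in both types, and 7p lies lowest among the broad values.

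Across bins, higher density went with higher background within each library. The Spearman rank correlation of narrow relative density with background was 0.467 in test 1 and 0.711 in test 2, against 0.668 in control 1 and 0.576 in control 2, over 66 to 85 bins with 3 or more peaks. For broad peaks it was 0.703 and 0.760 in the test libraries, against 0.573 and 0.720 in the control libraries, over 86 to 89 bins. Density went with fold enrichment in the opposite sense for broad peaks, at -0.531 and -0.665 in the test libraries, against -0.433 and -0.300 in the control libraries. All points come from the same lists and share depth and sequence content, and fold enrichment and background come from the same values, so no test was made.

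**Figure D4:**
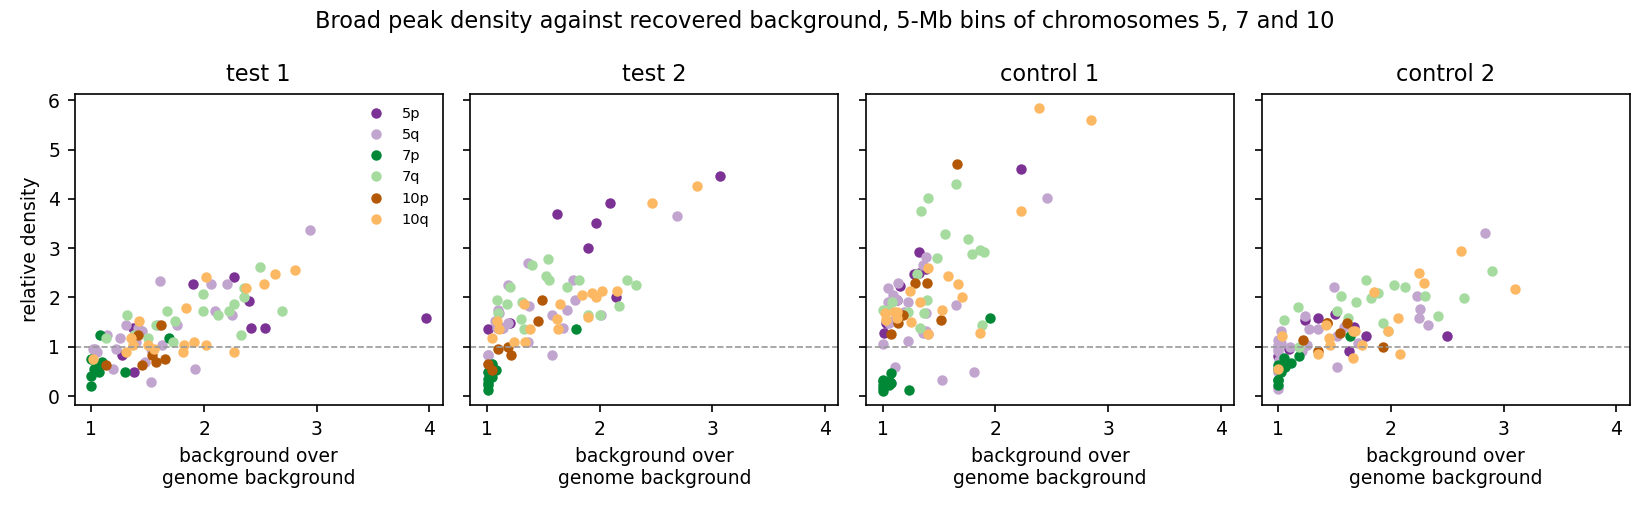
Relative density of broad peaks (y axis) against the recovered background over the library's genome background (x axis) in full bins of 5 Mb, 1 panel per library and 1 colour per arm. Most bins of 7p gather near the floor of 1 with densities under 1 in all 4 libraries. The densest bins, on 5p and 10q in test 2 and on 10q in control 1, are among those with the highest background.

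The crowded chromosomes did not hold taller peaks. The median narrow fold enrichment on chromosomes 5, 7 and 10 was 5.78 in test 1 and 5.58 in test 2, against 5.06 in control 1 and 5.73 in control 2. On the other chromosomes it was 5.88 and 5.59 in the test libraries, against 5.11 and 5.74 in the control libraries. The ratio of both medians averaged 0.991 ± 0.0106 in test and 0.993 ± 0.00604 in control libraries, a difference of -0.00260 with an exact two-sided permutation p of 1. By arm the narrow median lay between 4.93, on 10q in control 1, and 5.90, on 10q in test 1. Broad peaks were slightly lower on these chromosomes in every library, at 3.86 and 3.55 in the test libraries, against 3.54 and 3.57 in the control libraries. The values elsewhere were 4.12 and 3.66 in test 1 and test 2, against 3.55 and 3.77 in control 1 and control 2.

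How many peaks were shared differed by library, with control 1 far below the other 3. Of the narrow peaks on these chromosomes, 62.5% in test 1 and 53.8% in test 2 overlapped a peak of another library, against 7.82% in control 1 and 44.4% in control 2. The other chromosomes gave 62.2% and 57.5% in the test libraries, against 10.9% and 45.1% in the control libraries. Of the broad peaks on chromosomes 5, 7 and 10, 77.2% and 57.9% were shared in test 1 and test 2, against 23.6% and 58.8% in control 1 and control 2. The narrow difference between groups was 32.1 percentage points with an exact two-sided permutation p of 0.33, the smallest possible. It was 11.6 points without control 1 (exact permutation p of 0.667). With lists of equal length it was 16.3 points, at 55.9% ± 0.511 in test and 39.6% ± 26.4 in control libraries, where the groups overlapped and the exact permutation p was 1. On these chromosomes the narrow lists held 587 and 836 peaks in test 1 and test 2, against 2815 and 1025 in control 1 and control 2.

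Merged across libraries, the narrow peaks of these chromosomes outside dense windows formed 4357 regions. Of these, 86.6% were called in a single library, 2595 of them in control 1, against 82.3% of regions on the other chromosomes. All 4 libraries called 53 regions, or 1.22%, where the share over the genome was 1.66%. Test-only regions, called in both test and in no control library, numbered 38, or 0.872%, against 1.34% over the genome. Control-only regions numbered 34, or 0.780%, against 0.915% over the genome. The chromosomes thus had no larger share of group-specific narrow regions than the genome.

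Broad peaks formed 9801 regions, of which 179 were called in all 4 libraries, or 1.83% against 2.36% over the genome. Test-only broad regions numbered 84, or 0.857% against 1.04%, and control-only ones 139, or 1.42% against 1.20%. By arm, 5p held 25 test-only and 9 control-only broad regions among 1265, while 7q held 14 test-only and 51 control-only ones among 2740. Another 111 broad regions of 5p were called in test 2 and control 1 alone, which is 8.77% of the arm's regions, where that pattern made up 5.05% of all broad regions. On 7p, the sparse arm, 9 of 188 narrow regions were called in all 4 libraries, or 4.79%, the highest of the 6 arms. How many of these lay in the bin from 55 to 60 Mb beside the centromere was not counted.

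Broad peaks bore on whether narrow calls were limited to a group. Of the 38 test-only narrow regions, 29 overlapped a broad peak in both test libraries and 32 overlapped one in at least 1 control library, but 3 in both control libraries. Of the 34 control-only narrow regions, 15 overlapped a broad peak in at least 1 test library and 5 in both, while 25 overlapped one in at least 1 control library and 9 in both. A further 8 of the 34 overlapped none in any library.

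The named regions were the 2 highest ranked per arm among those called in all 4 libraries, and the 5 highest ranked test-only and control-only regions, by the smallest percentile of fold enrichment within the lists that called them. The highest ranked of all lay on 5q, chr5:79947258-79947481, with a narrow fold enrichment of 52.9 and 52.2 in test 1 and test 2, against 39 and 53.6 in control 1 and control 2. Its pileup was 343 and 337 fragments in the test libraries, against 143 and 490 in the control libraries. Its background was 35.5 and 33.0 times the genome background in the test libraries, against 7.40 and 45.0 times in the control libraries. With no control sample, that background includes the site's own fragments. It therefore does not show whether the surroundings held many fragments. No list of artefact-prone sites was applied, and a high value need not be open chromatin.

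The first region of 10q, chr10:98561327-98561545, had a fold enrichment of 37.2 and 38.2 in test 1 and test 2, against 46.4 and 40.6 in control 1 and control 2, and broad peaks in all 4 libraries. On 7q, chr7:100550680-100551051 had 31.8 and 27.5 in the test libraries, against 31.5 and 28.1 in the control libraries, also with broad peaks in all 4. On 5q, chr5:71146740-71146942 had 29.3 and 27.9 in the test libraries, against 33.1 and 34.9 in the control libraries. In these 3 regions the libraries lay within a narrow range and the broad lists repeated the call.

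Other regions called in all 4 libraries had no broad peak. On 10p, chr10:35310585-35310704 had a narrow fold enrichment of 32.3 and 31.1 in the test libraries, against 37.8 and 32.0 in the control libraries, with no broad peak in any library. The second region of 10p, chr10:38778056-38778183, lay in the megabase beside a window that was left out and had none either. On 7q, chr7:145694436-145694511, 76 bp long, had 36.2 and 34.6 in the test libraries, against 20.4 and 53.9 in the control libraries, with no broad peak. On 7p, chr7:45291577-45291693 had 46.1 and 39.7 in the test libraries, against 21.6 and 61.6 in the control libraries, with a broad peak in control 1 alone. Of the 53 regions called in all 4 libraries, 27 had a broad peak in all 4 and 9 in none.

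The remaining regions called in all 4 libraries lay on 5p, 7p and 10q. On 5p they were chr5:10562-11784, with 9.63 and 13.1 in the test libraries, against 14.1 and 22 in the control libraries, and chr5:46391665-46391747, with 9.21 and 10 against 12.9 and 12. Both were lower in each test library than in each control library, by values that are not normalised between libraries. The same held for the named regions chr5:71146740-71146942, chr10:38778056-38778183, chr10:98561327-98561545 and chr10:130262742-130262877. At the other named regions called in all 4 libraries the groups overlapped by fold enrichment. How often test values lay below control values over all regions called in all 4 libraries was not counted. By pileup the groups overlapped at chr5:10562-11784, with 19 and 37 in the test libraries, against 25 and 53 in the control libraries. They also overlapped by pileup at chr10:130262742-130262877, with 28 and 48 in the test libraries, against 90 and 47 in the control libraries. Fold enrichment there was 26.6 in test 2 and 26.7 in control 2. The second of 7p was chr7:20298-20451 and the second of 10q was chr10:130262742-130262877.

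The highest ranked test-only region lay on 5p, chr5:271463-271751, with a narrow fold enrichment of 7.78 (test 1) and 7.35 (test 2) and a broad peak in both test libraries and in control 2. The other 4 were chr10:74856745-74856890 on 10q, chr5:150138156-150138239 and chr5:156569829-156569970 on 5q, and chr10:29948101-29948183 on 10p. Their narrow fold enrichment lay between 6.61 and 7.96. All 5 overlapped a broad peak of control 2, so none was limited to test cells in both peak types.

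The highest ranked control-only region also lay on 5p, chr5:32370427-32370514, with narrow values of 20 (control 1) and 10.3 (control 2) and no broad peak in any library. Next came chr7:57993090-57993170, in the bin of 7p beside the centromere, with 12.3 and 9.88, and chr7:158153707-158153781 on 7q with 11.3 and 8.75. Both of these overlapped a broad peak in both test libraries. The last were chr7:130677375-130677459 on 7q and chr5:3660090-3660166 on 5p, neither with a broad peak. The 5 control-only regions were 75 to 88 bp long, with a pileup of 10 to 16 fragments in control 2.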

How the data were processed

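Peak lists of 4 ATAC-seq libraries, a narrow and a broad one each, were used. Per the file headers, the authors called peaks with MACS2 2.2.7.1 in each library alone, keeping all duplicates, using no control sample, and reading both ends of each fragment. The caller took 0.05 as its q threshold, 10000 bp for the regional background and 2.7e+09 as the genome size. Narrow peaks used nucleosome-free fragments and broad peaks all fragments, per the file headers. The submitters' processing notes also name edgeR 3.34.1, Picard, deepTools 3.5.1, cutadapt 3.2, Bowtie2 2.3.5.1 and hg19, and their roles are not given in the sources used here. Pileup, as deposited, is the coverage signal at a peak, fold enrichment, also deposited, is the ratio of pileup to local background, and the deposited p and q are on the −log10 scale. These are the authors' values for each peak, not normalized between libraries, and served to describe, rank or filter peaks. With duplicates kept and no control sample, repeats and copied fragments can be called, and a deeper library can pass the threshold at weaker sites.

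Chromosomes 1 to 22 and X were used. Peaks were assigned to arms with the hg19 centromere gaps, in which 0 peaks lay. Overlap of 1 bp joined peaks of different libraries into a region. Differences of group means were tested by exact permutation over 6 assignments, two-sided. Shares have exact (Clopper-Pearson) 95% intervals for counting error. The members, arms, bins and tests were chosen with earlier results of these data known. Named regions were taken by the rank rule given in the text. Alternatives were equal list lengths, a −log10 q of at least 5, dense windows kept, the 3 windows kept, all contigs, 10-Mb bins, bins with 5 or more peaks, background relative to that of the file header, an overlap of 50%, merging within 100 bp, each library left out, and a replicate block. Keeping the 2 further dense windows, the crossed pairing and the alternatives for the 5p background and the 10p share were chosen after seeing the data. Merging, background recovery and the permutation test were tested on simulated data. The simulated fold enrichment was made with the formula that recovery inverts. That check therefore covers the arithmetic only, not how well the formula holds in the deposited lists. An hg19 genome and annotation were not used here, so regions carry no gene names or sequences. The work was done in Python 3.11.15 with pandas 2.3.3, numpy 2.4.6, matplotlib 3.10.9 and scipy 1.17.1.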

Additional observations from a re-analysis of the deposited data

How the results depend on the processing

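The share, background and fold enrichment differences between test and control libraries are small beside their spread, and their sign depends on single libraries. Leaving out each library in turn gave a narrow share difference between -8.43 and 0.698 percentage points and a broad one between -7.38 and 2.37. The background difference lay between -0.00998 and 0.0733 and the fold enrichment difference between -0.0101 and 0.00486. Keeping the 3 windows gave a fold enrichment difference of 0.00389, and keeping the 2 further dense windows, chosen after seeing the data, gave 0.00173, with the opposite sign. The cause was not tested. The number of arm and peak type pairs without overlap was 4 at a −log10 q of 5 or more and between 3 and 11 with a library left out, where fewer libraries make overlap less likely. 10p was among them in every alternative, which was fixed in advance where a library was left out. The sharing difference, the 5p background and the 10p share kept their sign in all alternatives. For the 5p background and the 10p share, leaving out a library could not have changed it. Replicate numbers did not pair the libraries (the correlation of deviations of equal numbers was -0.815 over 84 arm and type pairs). With the numbers as a replicate block the narrow share difference was -3.87 points, the same by construction, exact sign-flip permutation p = 1. No call could change there, since the smallest p of a block is 0.5. With the pairing crossed, chosen after seeing the data, 8 of 12 arm and type pairs had 1 direction in both pairs, with 0 calls possible at a smallest p of 0.5. With 2 libraries a group no test could pass 0.05. Control 1 had both the most nucleosome-free fragments and the shortest fragments, and the part of depth in its values was not tested.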
